A study of Mus musculus with 24 samples.

Results

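Desmosomes were examined through 10 genes of their core in epidermis: the desmogleins Dsg1a, Dsg2 and Dsg3, the desmocollins Dsc1, Dsc2 and Dsc3, the plakophilins Pkp1 and Pkp3, plakoglobin (Jup) and desmoplakin (Dsp). They were chosen by name, and all 10 were found among the 18368 genes of the expression table. The data were bulk RNA-seq of whole skin from CD-1 mice, an outbred albino stock, aged 7 weeks and with hair growth synchronised in the resting phase. Each of 12 mice was wounded at a single site, with 4 mice each for abdomen, back and cheek, and each mouse gave a wound taken on day 3 and healthy skin next to it, so that there were 24 libraries in 6 groups of 4. The sample labels repeat mouse numbers 1 to 4 at every site. That these are 12 mice is inferred from the study's methods, which place the wounds of a mouse at a single site. Wounds were full-thickness excisions made with a 2 mm biopsy punch, 1 on the cheek and 2 on the abdomen or back of a mouse, and both kinds of tissue were collected with a punch of that diameter. No transgene or mutant allele is named for these mice, and the unwounded skin came from wounded, anaesthetised animals too. The sources used here do not say whether the 2 wounds of an abdomen or back mouse were pooled. The comparisons address how the transcripts of this junction differ between wound and unwounded skin, and between body sites.

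Desmosomes are the spot-like junctions that hold keratinocytes together and tie their keratin filaments into a tissue-wide network. Desmogleins and desmocollins are cadherins that bind across the gap between neighbouring cells. Inside the cell their tails bind the armadillo-repeat proteins plakoglobin and plakophilins, and desmoplakin, a plakin, links those to keratin. In stratified epidermis Dsg3 and Dsc3 are known as proteins of the lower layers, and Dsg1 and Dsc1 of the upper layers, while Dsg2 and Dsc2 are the pair found in simple epithelia and heart as well. Desmogleins 1 and 3 are the targets of autoantibodies in pemphigus.

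Values were FPKM, fragments per kilobase of transcript per 1e6 mapped fragments, as the authors deposited them. Library sums of FPKM ran from 490830 to 608888, and read counts per library were not used here, so the depth behind each value is unknown. Markers of epidermis were present in every library: the summed FPKM of 5 basal markers had a median of 4420 in unwounded skin (3639 to 5897) and 8170 in wounds (5288 to 10880). The 3 heart muscle markers, which skin should lack, summed to at most 0.37 FPKM in unwounded skin and 1.02 in wounds. Although the mice were synchronised, the summed FPKM of 7 hair follicle markers was 5133 in unwounded skin of cheek mouse 4 and 82.3 in that of back mouse 2. It was 27.2 in unwounded skin of cheek mouse 3, 23.5 in the wound of back mouse 2 and at most 3.39 in the other libraries. Results that lose or gain a call without back mouse 2 and cheek mouse 4, named below as the mice with hair follicle transcripts, are given with that value. Cheek mouse 3 was kept in those fits, and the comparisons between wounds of different sites were not refitted in this way. Results were counted as called at an adjusted p under 0.05 in limma, with Benjamini-Hochberg adjustment over all genes tested, and all 10 desmosome genes passed the filter on low values in every fit.

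In unwounded skin, Dsp, Pkp1 and Jup, which encode intracellular proteins, had the most abundant transcripts. Median FPKM over the 12 unwounded libraries, a per-length measure that allows genes to be compared, was 184 for Dsp (160 to 241), 163 for Pkp1 (126 to 193) and 162 for Jup (127 to 197). Among the cadherins, Dsg1a led at 134 (104 to 169), followed by Dsc3 at 89.5 (70.3 to 113), and Pkp3 stood beside them at 89.2 (70.1 to 132). Dsc1 had 50.6 (26.8 to 74.6), Dsg3 14.5 (6.92 to 25.4), Dsg2 5.34 (4.82 to 8.89) and Dsc2 5.24 (2.80 to 12.6). Of the neighbours in this order, only Dsc1 and Dsg3 had ranges that did not overlap. Dsg3, Dsg2 and Dsc2 thus formed a low group, and the pair best known outside stratified epithelia, Dsg2 and Dsc2, was at its foot.

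**Figure D1:**
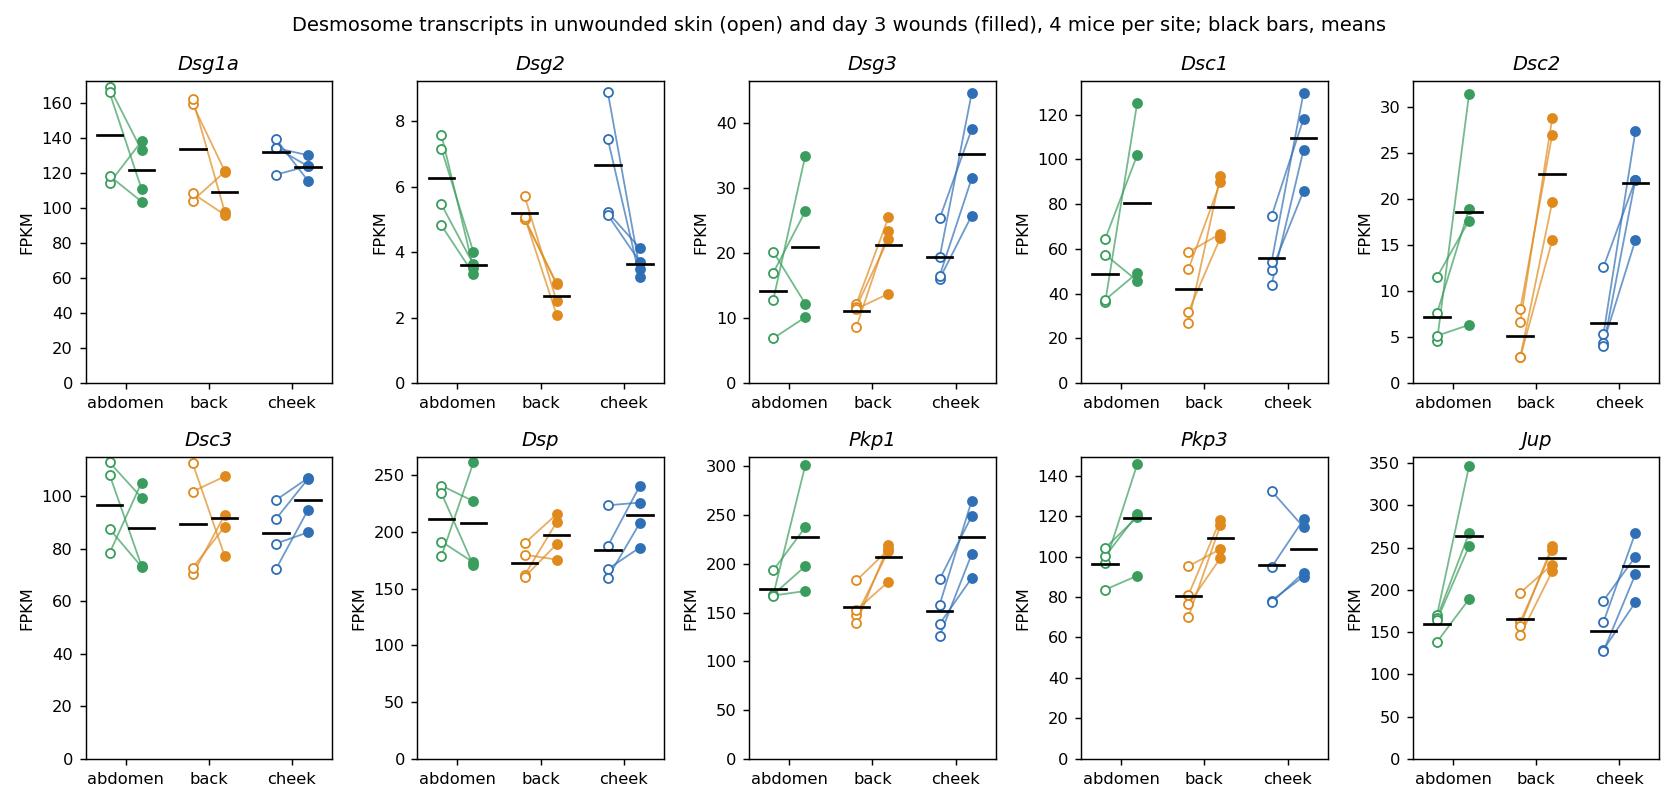
FPKM (linear axes from 0) of the 10 desmosome genes in each library; open points are unwounded skin, filled points day 3 wounds, lines join the samples of a mouse and black bars are means of 4 mice. All 12 lines rise for Dsc2, Pkp1 and Jup, all 12 fall for Dsg2, and for Dsc3 and Dsp 8 lines rise and 4 fall.

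Day 3 wounds held more transcript of Dsc2, Jup and Pkp1 and less of Dsg2 than unwounded skin at all 3 sites. Dsc2, one of the 2 least abundant members in unwounded skin, had the largest log2 fold change of the 10 at each site, 1.19 to 2.15. Dsg3 and Dsc1 rose at the back and cheek, and Pkp3 rose at the back. Dsg1a, Dsc3 and Dsp, the leading desmoglein, desmocollin and plakin, were called at none of the sites. Because these are whole punches of skin, fewer cells of a type and less RNA per cell cannot be told apart, here or below.

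By count, 3 of the 10 genes rose and 1 fell in abdomen wounds, where 16.9% of the 14423 tested genes rose and 16.0% fell. In back wounds 6 rose and 1 fell, against 28.0% and 17.9% of all tested genes. In cheek wounds 5 rose and 1 fell, against 19.7% and 16.9%. The 3 genes that rose at all sites stand beside 12.0% of tested genes, and the 1 that fell at all sites beside 7.15%. The median log2 fold change of the 10 genes was 0.32 in the abdomen, 0.43 in the back and 0.40 in the cheek, where the median over all tested genes was -0.01, 0.07 and 0.01. At a stricter adjusted p under 0.001 the calls were Jup in the abdomen, Dsg2 and Dsc2 in the back, and none in the cheek, where 6 had an unadjusted p under 0.05. Shares of all tested genes were not counted at 0.001 or at an unadjusted p, here or below, so those counts have no background to stand beside.

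The 6 cadherin members, together with Dsg1b, Dsg1c and Dsg4, lie in a single cluster on chromosome 18 (GRCm38.p6), from 19960930 to 20604526, a stretch of 644 kb in which the annotation places 9 protein-coding genes, all of them desmosomal cadherins. Their order is Dsc3, Dsc2, Dsc1, Dsg1c, Dsg1a, Dsg1b, Dsg4, Dsg3 and Dsg2, with the desmocollins on the minus strand and the desmogleins on the plus strand. Neighbours in this row moved differently in wounds. Dsg2 (gene ID 13511, 20558074 to 20604526), which fell, lies next to Dsg3 (13512, 20510274 to 20541310), which rose at the back and cheek. At the other end, Dsc3 (13507, 19960930 to 20002410), called at no site, lies next to Dsc2 (13506, 20030633 to 20059554), with Dsc1 (13505, 20083471 to 20114773) beyond it. Dsg1a (13510, 20310873 to 20343353) lies between Dsg1c and Dsg1b.

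Dsg2, the desmoglein of simple epithelia, fell in 12 of 12 mice. In abdomen mice 1 to 4 it had 4.82, 7.16, 5.46 and 7.59 FPKM in unwounded skin and 3.34, 4.01, 3.63 and 3.51 in wounds. In back mice the values were 5.02, 5.03, 5.72 and 5.08 FPKM in unwounded skin and 3.02, 3.05, 2.51 and 2.09 in wounds. In cheek mice unwounded skin had 5.22, 5.14, 7.46 and 8.89 FPKM and wounds 4.13, 3.71, 3.24 and 3.48. Every wound was below every unwounded sample of its site, and the lowest wound values were those of the back. The log2 fold changes were -0.69 ± 0.16 (SE, n = 4 mice) in the abdomen, -0.86 ± 0.16 in the back and -0.76 ± 0.16 in the cheek, with adjusted p of 0.00567, 0.000849 and 0.00257 in limma. All 3 calls held without any single mouse.

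Dsg3, the desmoglein of the lower epidermis and the main pemphigus vulgaris antigen, was higher in wounds in 11 of 12 mice. Back mice had 12.2, 11.8, 8.72 and 11.4 FPKM in unwounded skin and 25.5, 22.3, 23.4 and 13.8 in wounds. Cheek mice had 16.1, 16.6, 19.4 and 25.4 FPKM, against 25.8, 31.5, 44.6 and 39.1 in wounds. At both sites the wound values lay above all unwounded values. Abdomen mice were more spread, with 12.8, 17.0, 6.92 and 20.2 FPKM in unwounded skin and 35.04, 26.5, 10.2 and 12.2 in wounds, and mouse 4 went down. Log2 fold changes were 0.46 ± 0.27 (SE, adjusted p = 0.201) in the abdomen, 0.89 ± 0.27 (adjusted p = 0.0178) in the back and 0.84 ± 0.27 (adjusted p = 0.0281) in the cheek. The back call was lost without back mouse 1, 2 or 3 (log2 fold changes 0.84, 0.89 and 0.73, adjusted p = 0.0584, 0.0547 and 0.0870), and the cheek call without cheek mouse 1, 2 or 3 (0.90, 0.82 and 0.73, adjusted p = 0.0571, 0.0923 and 0.112) or without a term for each mouse (adjusted p = 0.0632). Both were lost without the 2 mice with hair follicle transcripts (0.89 and 0.92, adjusted p = 0.0697 and 0.0662), and without abdomen mouse 4 the abdomen reached 0.85 (adjusted p = 0.0140).

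Dsg1a, the most abundant desmoglein, ranged from 104 to 169 FPKM over the 12 unwounded libraries and from 96.3 to 138 over the 12 wounds. It was lower in the wound in 9 of 12 mice, and at each site the groups overlapped. The log2 fold changes were -0.21, -0.27 and -0.09 in abdomen, back and cheek, with an SE of 0.14, 95% intervals from -0.52 to 0.10, -0.58 to 0.04 and -0.41 to 0.22, and adjusted p of 0.284, 0.144 and 0.649. In the back the value reached -0.43 without back mouse 2 (adjusted p = 0.0414) or without both mice with hair follicle transcripts (adjusted p = 0.0473), and with every library scaled to Cdh1 it was -0.37 (adjusted p = 0.0348). The mouse has 3 Dsg1 genes, and 21.9% of the distinct 100-base stretches in the annotated transcripts of Dsg1a also occur in those of Dsg1b. Reads of that length (100 bases, paired) from such stretches could be assigned to either gene, so the division of Dsg1 signal between the copies is uncertain. The corresponding share is 31.6% for the stretches of Dsg1b. Of the stretches of Dsg1c, 12.7% also occur in Dsg1a and 10.1% in Dsg1b. Dsg2 and Dsg3 share no 100-base stretch with each other or with the Dsg1 genes. None is shared among the desmocollins or among the plakophilins.

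Dsc2, the broadly expressed desmocollin, rose in 12 of 12 mice. In abdomen mice 1 to 4, unwounded skin had 4.62, 7.63, 11.6 and 5.15 FPKM and wounds 31.4, 18.9, 17.7 and 6.34. Back mice went from 8.04, 2.84, 6.66 and 2.80 to 27.0, 19.7, 28.8 and 15.5 FPKM. Cheek mice went from 4.39, 4.01, 5.33 and 12.6 to 15.6, 22.1, 27.4 and 22.1 FPKM. The groups were apart at the back and cheek, whereas abdomen mouse 4 rose by little and its wound lay within the range of unwounded skin. Log2 fold changes were 1.19 ± 0.35 (SE) in the abdomen, 2.15 ± 0.35 in the back and 1.77 ± 0.35 in the cheek, or 2.28-, 4.44- and 3.41-fold, with adjusted p of 0.0234, 0.000602 and 0.00271. The abdomen call was lost without abdomen mouse 1 (0.71, adjusted p = 0.0896) or mouse 2 (1.17, adjusted p = 0.0640), and when the abdomen was fitted on its own 8 libraries (adjusted p = 0.120).

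Dsc1, the desmocollin of the upper layers, was higher in wounds in 11 of 12 mice. Unwounded back skin had 50.9, 26.8, 31.9 and 58.5 FPKM in mice 1 to 4, and back wounds 89.8, 92.6, 64.99 and 66.76. Unwounded cheek skin had 50.4, 44.0, 54.2 and 74.6 FPKM, and cheek wounds 85.9, 104, 130 and 118. Neither site showed overlap between wound and unwounded skin. In the abdomen the values were 36.1, 64.4, 37.3 and 57.5 FPKM against 125, 102, 49.2 and 45.8, and mouse 4 again went the other way. The log2 fold changes were 0.63 ± 0.30 (SE, adjusted p = 0.125), 0.95 ± 0.30 (adjusted p = 0.0224) and 0.98 ± 0.30 (adjusted p = 0.0242) in abdomen, back and cheek. The back call was lost without back mouse 2 (0.67, adjusted p = 0.118) or mouse 3 (0.92, adjusted p = 0.0687) and without the mice with hair follicle transcripts (0.67, adjusted p = 0.132). The cheek call was lost without cheek mouse 1, 2 or 3 (1.05, 0.89 and 0.89, adjusted p = 0.0502, 0.0967 and 0.0924), and the abdomen reached 0.94 without its mouse 4 (adjusted p = 0.0418).

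Dsc3, the most abundant desmocollin and one of the lower layers, ranged from 70.3 to 113 FPKM in unwounded skin and from 73.2 to 108 in wounds, with overlap at each site. Its log2 fold changes of -0.14, 0.06 and 0.20 in abdomen, back and cheek (SE 0.16, adjusted p = 0.510, 0.795 and 0.337) had 95% intervals of -0.48 to 0.19, -0.28 to 0.39 and -0.14 to 0.54. The sign of the back value turned under 6 of the alternatives, none of them with a call. Set against Dsc3 in the same sample, Dsc2 gained in 12 of 12 mice, by 0.67 to 2.82 on the log2 scale (median 1.70), and Dsc1 gained in 12 of 12, by 0.23 to 1.37 (median 0.73).

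Jup encodes plakoglobin, the armadillo protein that sits in both desmosomes and adherens junctions, and it rose in 12 of 12 mice. Abdomen mice 1 to 4 had 170, 167, 164 and 138 FPKM in unwounded skin and 346, 267, 252 and 189 in wounds. Back mice had 197, 162, 158 and 146 FPKM in unwounded skin and 230, 248, 252 and 222 in wounds. Cheek mice had 129, 127, 162 and 187 FPKM in unwounded skin and 185, 219, 268 and 239 in wounds. Wounds and unwounded skin were apart at the abdomen and back, and at the cheek only the lowest wound fell within the unwounded range. The log2 fold changes of 0.69, 0.53 and 0.59 (SE 0.11, adjusted p = 0.000605, 0.00175 and 0.00116) correspond to 1.61-, 1.44- and 1.51-fold. Each of these calls held without any single mouse and under each scaling tried. Its close relative β-catenin (Ctnnb1), which serves adherens junctions, was called at no site, and Jup gained on it in 12 of 12 mice, by 0.10 to 0.83 (log2, median 0.64).

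Pkp1, the plakophilin of the upper epidermis, was higher in the wound in 12 of 12 mice. Its values were 168, 193, 169 and 168 FPKM in unwounded abdomen and 301, 238, 198 and 172 in abdomen wounds. They were 183, 147, 139 and 153 FPKM in unwounded back and 215, 214, 219 and 182 in back wounds. In the cheek they were 139, 126, 158 and 184 FPKM in unwounded skin and 185, 210, 265 and 249 in wounds. Only at the cheek were the groups apart, and there by a narrow margin. The log2 fold changes were 0.35 ± 0.12, 0.42 ± 0.12 and 0.58 ± 0.12 (SE, adjusted p = 0.0421, 0.0141 and 0.00282 in abdomen, back and cheek). The abdomen call was lost without abdomen mouse 1, 2 or 3 (0.19, 0.37 and 0.39, adjusted p = 0.221, 0.0828 and 0.0705), back mouse 2 (0.35, adjusted p = 0.0534) or cheek mouse 1 (0.35, adjusted p = 0.0519), and the back call without back mouse 2 (0.38, adjusted p = 0.0633) or 3 (0.34, adjusted p = 0.0789). Quantile normalisation ended both calls (0.24 and 0.22, adjusted p = 0.186 and 0.208), as did scaling to Cdh1 (0.27 and 0.31, adjusted p = 0.110 and 0.0513) and leaving out the mice with hair follicle transcripts (0.35 and 0.38, adjusted p = 0.0565 and 0.0667).

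Pkp3, the plakophilin present through all layers, ranged from 70.1 to 132 FPKM in unwounded skin and from 90.1 to 146 in wounds. Back wounds had 104, 118, 115 and 99.1 FPKM, all above the unwounded values of 95.2, 80.9, 70.1 and 76.4. The log2 fold change there was 0.44 ± 0.11 (SE, adjusted p = 0.00704). In the abdomen it was 0.29 ± 0.11 (adjusted p = 0.0630), with 4 of 4 mice higher, and in the cheek 0.14 ± 0.11 (adjusted p = 0.350), where mouse 4 had 132 FPKM in unwounded skin and 115 in the wound. Without cheek mouse 4 the abdomen value, unchanged at 0.29, had an adjusted p of 0.0409. Pkp1 (18772) lies on chromosome 1 from 135871394 to 135919207 and Pkp3 (56460) on chromosome 7 from 141078229 to 141090511.

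Dsp, the plakin that anchors keratin and the most abundant of the 10 transcripts in unwounded skin, ranged from 160 to 241 FPKM there and from 170 to 261 in wounds. The groups overlapped at each site. Its log2 fold changes were -0.03, 0.19 and 0.23 in abdomen, back and cheek (SE 0.13, adjusted p = 0.861, 0.263 and 0.194), with 95% intervals of -0.32 to 0.25, -0.10 to 0.47 and -0.06 to 0.51. Relative to Dsp in the same sample, Jup gained in 12 of 12 mice (0.04 to 0.91, median 0.42, log2) and so did Pkp1 (0.05 to 0.50, median 0.36). Jup, which rose at all sites, and Dsp, which was called at none, are the 2 of the 10 genes with an entry in the promoter table used here, and the bases upstream of their first annotated start are shown for that contrast. They are from GRCm38.p6 (RefSeq), 5′ to 3′ on the strand of the gene, with GC boxes (GGGCGG or its reverse complement) in capitals. The Jup stretch is chr11:100397840-100398040 on the minus strand, ahead of the gene (16480) at 100368856 to 100397839. The Dsp stretch is chr13:38151044-38151293 on the plus strand, ahead of the gene (109620) at 38151294 to 38198577.
Jup: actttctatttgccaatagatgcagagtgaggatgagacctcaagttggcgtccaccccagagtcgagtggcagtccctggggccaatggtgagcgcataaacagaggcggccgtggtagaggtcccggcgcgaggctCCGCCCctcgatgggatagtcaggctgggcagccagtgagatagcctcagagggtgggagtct
Dsp: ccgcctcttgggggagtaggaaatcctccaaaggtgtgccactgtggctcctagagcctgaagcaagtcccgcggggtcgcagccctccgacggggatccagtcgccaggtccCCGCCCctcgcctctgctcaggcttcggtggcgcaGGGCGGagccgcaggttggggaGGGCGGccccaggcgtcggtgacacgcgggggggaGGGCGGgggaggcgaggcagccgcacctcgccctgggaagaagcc
Dsp had 4 GC boxes in its 250 bases, starting 137, 102, 80 and 45 bases before the gene, and Jup had 1 in its 201 bases, starting 63 bases before it. GC boxes occurred in 32.7% of the 32851 promoters compared in windows of 250 bases and in 24.8% in windows of 201. On either strand neither stretch held TGANTCA (AP-1), found in 6.75% of promoters at 250 bases and 5.59% at 201, AACNGGTT (grainyhead-like), found in 1.79% and 1.42%, or TTGCNNAA (C/EBP), found in 9.56% and 8.17%. The GC boxes do not overlap one another, and letters in a window do not show a site in use.

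**Figure D2:**
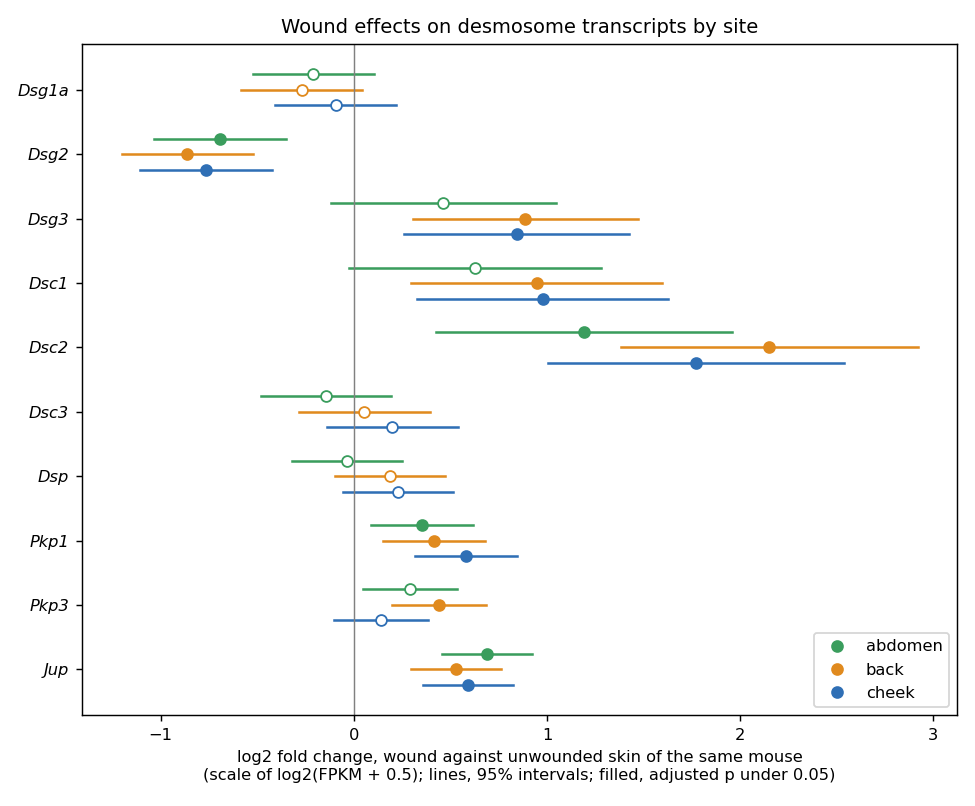
Log2 fold change (scale of log2(FPKM + 0.5)) of wound against unwounded skin of the same mouse for the 10 genes at the 3 sites, with 95% intervals; filled points have an adjusted p under 0.05 in limma. Dsg2 lies between -0.86 and -0.69, Jup between 0.53 and 0.69, and the intervals of Dsg1a, Dsc3 and Dsp include 0.

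Whether wounding moved these genes by different amounts at the 3 sites was tested directly. The F test of the difference between the wound effects called none of the 10 genes, and none had an unadjusted p under 0.05, beside 0.0208% of all tested genes called (3 of 14423) by limma. For Dsc2 the back effect exceeded that of the abdomen by 0.96 (95% interval -0.13 to 2.04, adjusted p = 0.381). For Pkp3 the cheek effect was below that of the back by 0.30 (a difference of -0.30, 95% interval -0.64 to 0.05). For Jup the intervals of the 3 differences lay between -0.49 and 0.39. A call at one site and not at another, as for Dsg3, Dsc1 and Pkp3, was thus not shown to be a difference between sites.

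The make-up of the transcript pool, gene by gene, differed between wound and unwounded skin in the desmogleins and desmocollins. For the plakophilins, the Pkp1 share differed mainly in the cheek. Among the desmogleins, the share of Dsg1a in the summed FPKM was 77.0% ± 4.2 (SD, n = 12) in unwounded skin and 62.1% ± 6.2 in wounds, lower in 12 of 12 mice. Dsg1b went from 10.3% to 22.5% (higher in 12 of 12), Dsg3 from 8.35% to 12.95% (higher in 11 of 12) and Dsg2 from 3.45% to 1.75% (lower in 12 of 12). With Dsg1a, Dsg1b and Dsg1c summed, the share of Dsg1 was 87.6% in unwounded skin and 85.3% in wounds, a change of -2.30 percentage points where Dsg1a alone changed by -14.98. Most of the loss of Dsg1a share was therefore matched by Dsg1b, whose transcripts share sequence with those of Dsg1a. The summed FPKM of the 3 Dsg1 genes was 162 ± 33 (SD, n = 4) in unwounded abdomen and 164 ± 36 in its wounds, 150 ± 35 and 152 ± 18 in the back, and 151 ± 12 and 174 ± 10 in the cheek, where 4 of 4 mice were higher in the wound.

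Among the desmocollins, Dsc3 held 62.7% ± 4.2 (SD, n = 12) of the summed FPKM in unwounded skin and 46.6% ± 5.1 in wounds, lower in 12 of 12 mice. Dsc1 took 33.0% ± 4.2 and 43.2% ± 5.2, and Dsc2 4.32% ± 1.93 and 10.3% ± 2.7, each higher in 12 of 12. In unwounded skin Dsc3 was the leading desmocollin in all libraries (53.0% to 70.3%), and in cheek wounds Dsc1 led on average, with 47.5% against 43.1% for Dsc3. Of the summed FPKM of Pkp1, Pkp2 and Pkp3, without Pkp4, Pkp1 held 63.5% ± 2.6 in unwounded skin and 66.2% ± 2.1 in wounds, higher in 9 of 12 mice. In the cheek the Pkp1 share went from 61.0% to 68.3%, higher in 4 of 4 mice, and in the back from 65.5% to 65.3%. These shares are ratios within a library and do not depend on scaling between libraries, and they are given as a description with no test.

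**Figure D3:**
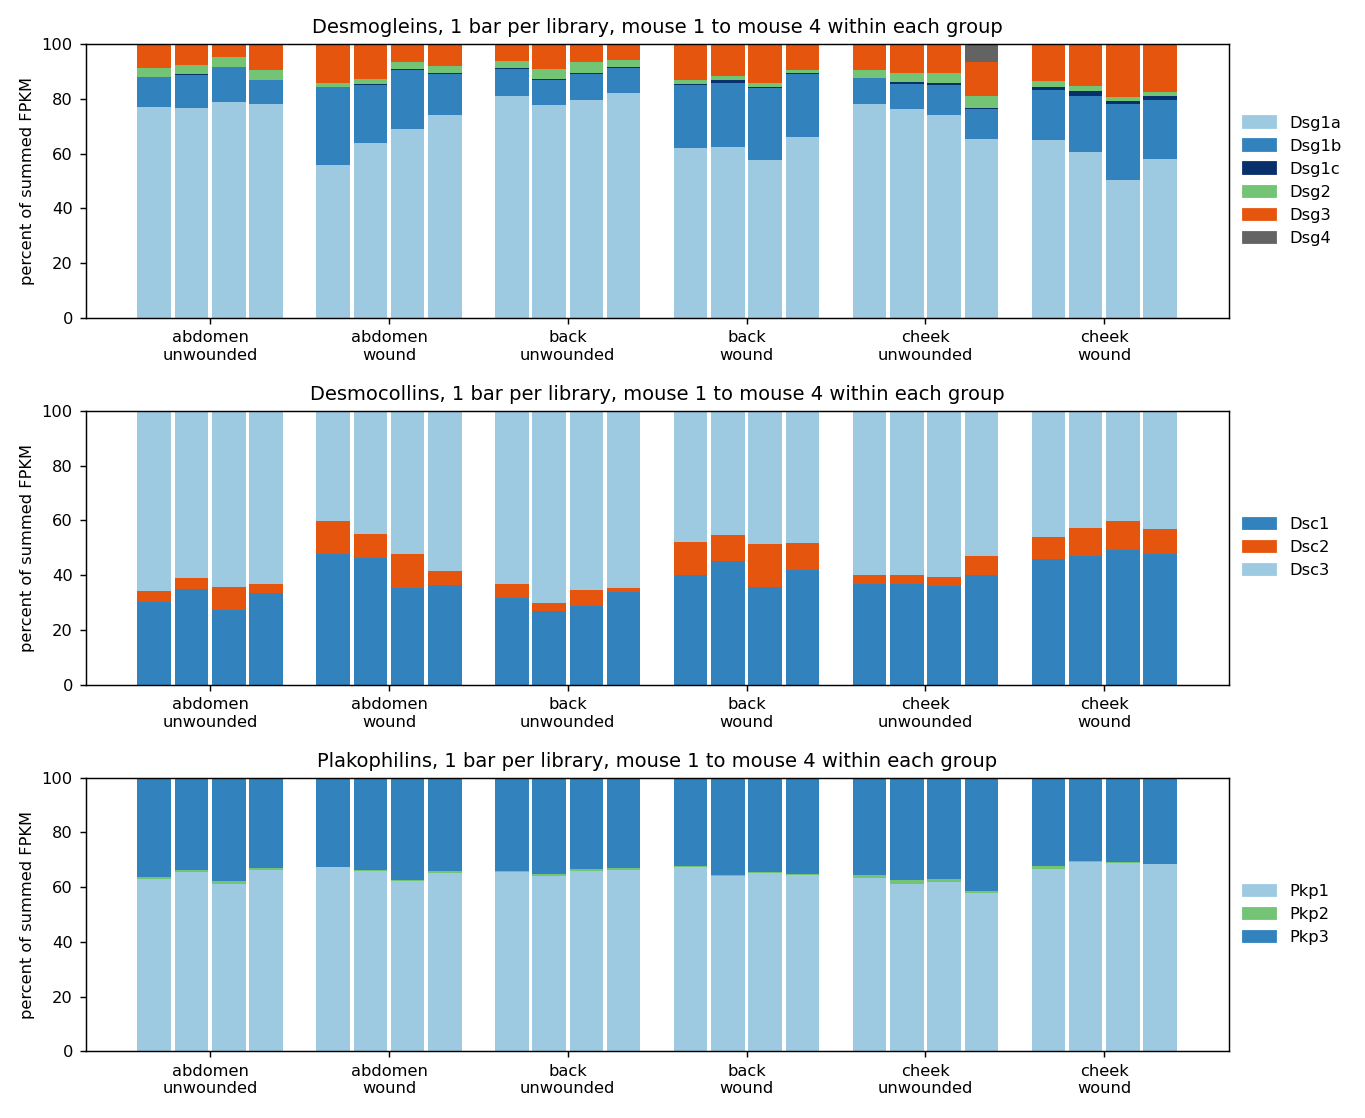
Percent of the summed FPKM of a family held by each gene, 1 bar per library, for desmogleins, desmocollins and plakophilins. In each of the 12 mice the Dsg1a and Dsc3 segments are smaller in the wound, and the Dsg4 segment is visible in unwounded cheek mouse 4 (6.72%).

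Levels of the 10 genes were also compared between body sites. Some 95% intervals were wide, so lack of a call does not show that levels were close. In unwounded skin limma called none of the 10 genes in any pair of sites. Of 13956 tested genes, 2.67% differed between back and abdomen, 2.57% between cheek and abdomen and 1.05% between cheek and back. At an unadjusted p under 0.05 there was 1, Dsg3 in cheek against back (a difference of 0.77 on the log2 scale, SE 0.27, adjusted p = 0.154), with 16.1 to 25.4 FPKM in the cheek and 8.72 to 12.2 in the back. The remaining differences lay between -0.52 and 0.51, those bounds being Dsc2 in back against abdomen (95% interval -1.46 to 0.43) and Dsg3 in cheek against abdomen (-0.08 to 1.09). Dsp was lower in back than abdomen by 0.28 (difference -0.28, 95% interval -0.57 to 0.01, adjusted p = 0.246).

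In wounds none of the 10 was called either, beside 1.27% of 14023 tested genes between back and abdomen, 10.8% between cheek and abdomen and 2.50% between cheek and back, and each pair had 1 gene with an unadjusted p under 0.05 in limma. Dsg2 was lower in back wounds (2.09 to 3.05 FPKM) than in those of the abdomen (3.34 to 4.01) and cheek (3.24 to 4.13), with no overlap. Its log2 differences were -0.39 in back minus abdomen (SE 0.12, adjusted p = 0.119) and 0.39 in cheek minus back (adjusted p = 0.0768). Dsg3 was higher in cheek wounds (25.8 to 44.6 FPKM) than in abdomen wounds (10.2 to 35.04), by 0.88 (SE 0.37, adjusted p = 0.126). It was also higher than in back wounds (13.8 to 25.5 FPKM), with no overlap and a log2 difference of 0.72 (adjusted p = 0.235). Without abdomen mouse 1 or with each library scaled to Cdh1, Dsg3 became the 1 member called between wounds of different sites. The other 8 genes had log2 differences between -0.19 and 0.56.

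Of the 9 other desmosome genes listed beside the members, 8 passed the filter on low values. In the abdomen 1 of the 8 rose and 3 fell, in the back 3 rose and 2 fell, and in the cheek 3 rose and 1 fell. Their median log2 fold changes were 0.16, 0.21 and 0.23. Dsg1b, the second Dsg1 copy, rose at all 3 sites, from means of 20.1, 16.1 and 18.4 FPKM in abdomen, back and cheek to 42.3, 41.7 and 47.4 in wounds. Its log2 fold changes were 0.96, 1.37 and 1.34 (SE 0.24, adjusted p = 0.0112, 0.000910 and 0.00150), and against Dsg1a in the same sample it gained in 12 of 12 mice, by 0.88 to 1.87 (median 1.51). Fitted on its own 8 libraries, the abdomen had an adjusted p of 0.0843 for Dsg1b. Dsg1c stayed low, at 0.21 to 1.2 FPKM in unwounded skin and 0.46 to 3.71 in wounds, and was higher in the wound in 12 of 12 mice. It was called in the back (0.78, adjusted p = 0.0208) and cheek (1.57, adjusted p = 0.000414), the back call being lost without back mouse 2 (0.45, adjusted p = 0.142) or 3 (0.79, adjusted p = 0.0549) or without both mice with hair follicle transcripts (0.45, adjusted p = 0.103). Cheek wounds, with 1.97, 3.71, 2.30 and 3.70 FPKM, had more Dsg1c than abdomen wounds, with 0.70, 0.50, 0.51 and 0.46 (log2 difference 1.68 ± 0.27 SE, adjusted p = 0.00661), and this call held without any single mouse. Against back wounds the cheek difference of 1.17 (adjusted p = 0.0458) held without abdomen mouse 1, abdomen mouse 3 or back mouse 2, and was lost without each of the other 9 mice (0.96 to 1.31, adjusted p = 0.0505 to 0.138). The test of a difference in its wound effects gave an adjusted p of 0.251. Dsg1c shares stretches with the far more abundant Dsg1a and with Dsg1b, so its values carry the same uncertainty of read assignment.

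Pkp4 and Pkp2, both less abundant than Pkp1 and Pkp3, fell at 2 sites each. Pkp4, an armadillo protein also found at adherens junctions, was lower in the wound in 12 of 12 mice and fell in the abdomen (-0.37 ± 0.09 SE, adjusted p = 0.00677) and back (-0.36 ± 0.09, adjusted p = 0.00509), with -0.17 in the cheek (adjusted p = 0.155). Pkp2, the plakophilin of heart and simple epithelia, had a median of 2.08 FPKM in unwounded skin and 1.33 in wounds. It fell in the abdomen (-0.50, adjusted p = 0.0351) and cheek (-0.53, adjusted p = 0.0262). The abdomen call was lost without abdomen mouse 1, 2 or 3 (-0.44, -0.49 and -0.48, adjusted p = 0.119, 0.0897 and 0.0996) and the cheek call without cheek mouse 2, 3 or 4 (-0.44, -0.56 and -0.38, adjusted p = 0.118, 0.0575 and 0.122) or both mice with hair follicle transcripts (-0.38, adjusted p = 0.130). Dsg2 and Pkp2, both known from simple epithelia and heart, were the lowest desmoglein but Dsg1c and Dsg4 and the lowest plakophilin in unwounded skin, and Pkp2 was lower in the wound in 10 of 12 mice. Dsc2, known from the same tissues, went the other way and was higher in the wound in 12 of 12.

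The remaining desmosome genes changed by small amounts. Periplakin (Ppl), a plakin of the upper layers, was lower in the wound in 12 of 12 mice and fell in the abdomen (-0.42 ± 0.09 SE, adjusted p = 0.00359) and back (-0.24 ± 0.09, adjusted p = 0.0417). The back call for Ppl was lost without back mouse 1, 3 or 4 (adjusted p = 0.110, 0.135 and 0.120) or abdomen mouse 2 or 3 (adjusted p = 0.0539 and 0.0545), and in the cheek Ppl (-0.23, adjusted p = 0.0576) was called without abdomen mouse 1 (adjusted p = 0.0394) and under each of the 3 other scalings. Envoplakin (Evpl), its partner in the cornified envelope, was higher in the wound in 10 of 12 mice and rose in the back (0.33 ± 0.11, adjusted p = 0.0219), a call lost without back mouse 2, 3 or 4 (adjusted p = 0.0781, 0.0750 and 0.0521) or both mice with hair follicle transcripts (adjusted p = 0.0589), and under each of the 3 other scalings. In the cheek its 0.28 (adjusted p = 0.0556) was called without abdomen mouse 1 or 4 or cheek mouse 4 (adjusted p = 0.0191, 0.0488 and 0.0215), or without both mice with hair follicle transcripts (adjusted p = 0.0300). Perp, a small membrane protein of desmosomes with 886 to 1454 FPKM in unwounded skin, was higher in 12 of 12 wounds by 0.20, 0.28 and 0.32 in abdomen, back and cheek (adjusted p = 0.194, 0.0603 and 0.0438). The Perp call in the cheek was lost without 7 of the 12 mice taken 1 at a time, namely each cheek mouse, abdomen mice 2 and 3 and back mouse 3 (adjusted p from 0.0520 to 0.181), without both mice with hair follicle transcripts (adjusted p = 0.0695), on the cheek's own 8 libraries (adjusted p = 0.0593) and under each of the 3 other scalings (adjusted p from 0.0620 to 0.267), and the back was called without abdomen mouse 1 or back mouse 4 (adjusted p = 0.0358 and 0.0471). Cdsn, the corneodesmosin of shed cell layers, was called nowhere (0.13 to 0.20). Dsg4, the desmoglein of the hair shaft, did not pass the filter and had 13.8 FPKM in unwounded cheek mouse 4, the library with the highest hair follicle markers, 0.41 in unwounded back mouse 2 and at most 0.20 elsewhere.

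Other junction families gave a frame for these values. Of 9 adherens junction genes, 2 rose and 1 fell in the abdomen, 4 and 1 in the back, and 3 and 1 in the cheek, with median log2 fold changes of 0.09, 0.25 and 0.09. Vinculin (Vcl), an actin linker, rose at all 3 sites (0.44, 0.56 and 0.61), as did Nectin1 (0.53, 0.49 and 0.57), and Afdn, the actin-binding partner of nectins, fell at all 3 (-0.65, -0.47 and -0.52). E-cadherin (Cdh1), the classical cadherin of keratinocytes, had 59.4 to 64.8 FPKM as site means in unwounded skin and 63.6 to 69.0 in wounds and was not called. Of 6 hemidesmosome genes, which fix keratinocytes to the basement membrane, none rose in the abdomen or back and 2 fell at each, while 2 rose and 1 fell in the cheek. Dst, a plakin of hemidesmosomes, fell at all 3 sites (-0.70, -0.62 and -0.37), and Col17a1 fell in the abdomen and back (-0.42 and -0.36). The 2 that rose in the cheek were Itga6 (0.60) and Itgb4 (0.42), and neither was called in the abdomen or back. Plectin (Plec), another plakin of this list, was called at no site (-0.07, -0.17 and -0.02).

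Keratins form the filaments that desmosomes anchor. Of 10 listed keratins, 6, 7 and 7 rose in abdomen, back and cheek and 2 fell at each site. Krt6b, a keratin of the wound edge, went from site means of 0.41 to 2.11 FPKM to 2215 to 2761 in wounds (log2 fold changes 9.98 to 11.12), and Krt16 from 12.6 to 24.4 FPKM to 1981 to 2427. The basal keratin Krt14 rose by 1.54, 1.99 and 1.94, and the suprabasal Krt1 by 1.475, 1.451 and 1.9. Krt10, also suprabasal, was called at no site. Those that fell were Krt15, another basal keratin (-1.03, -0.77 and -0.83), and the suprabasal Krt2 (-0.60, -0.37 and -0.69). Krt2 was near the filter limit, with site means of 0.52 to 0.71 FPKM in unwounded skin and 0.18 to 0.43 in wounds. Krt6a rose by 4.435, 5.403 and 4.715 in abdomen, back and cheek. At each site the log2 fold changes of Krt6a, Krt6b and Krt16 were larger than the 2.15 of Dsc2 in the back. That value was the largest in a desmosome member.

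**Figure D4:**
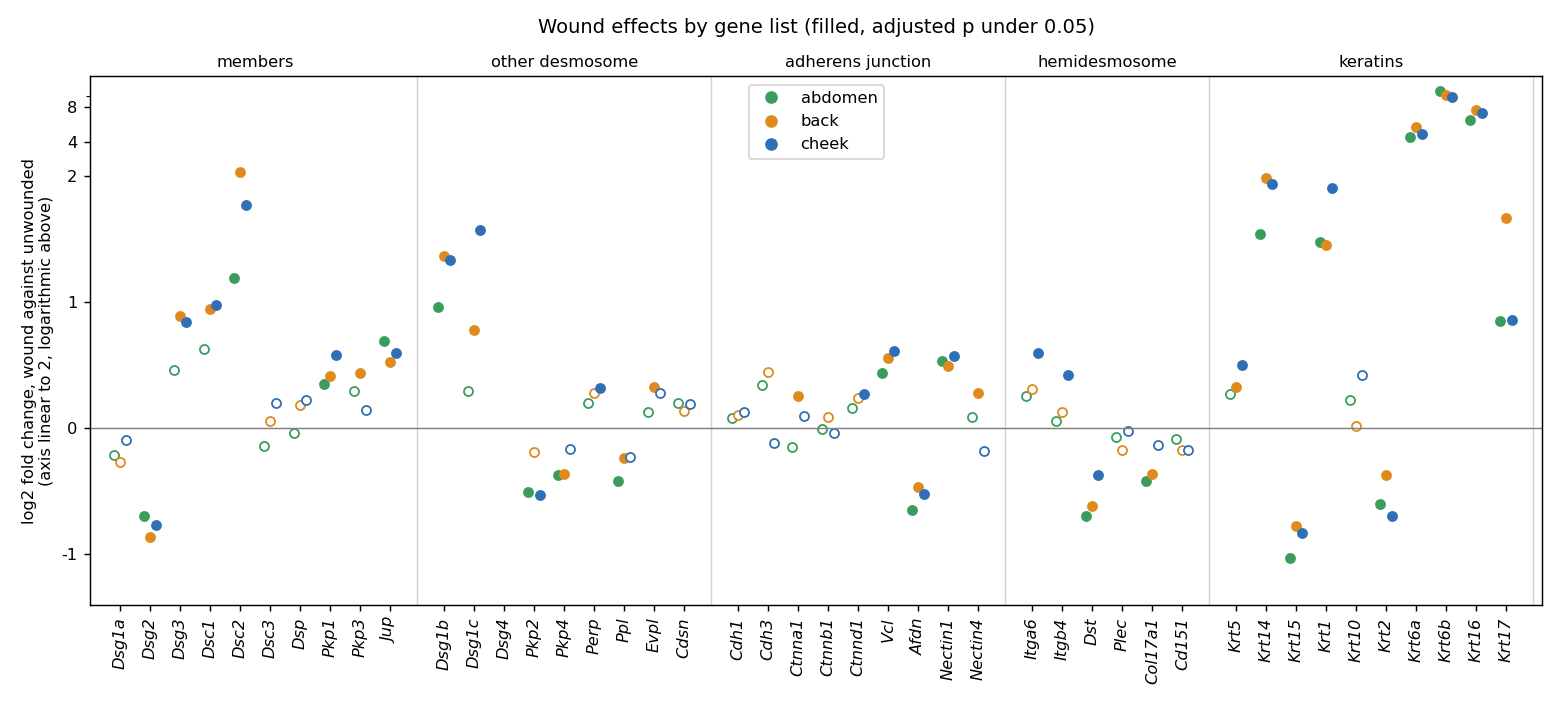
Log2 fold change of wound against unwounded skin (vertical axis linear up to 2 and logarithmic above) for the desmosome members and 4 gene lists, with 1 point per site; filled points have an adjusted p under 0.05 in limma, and Dsg4 was not tested. Krt6b reaches 11.12, while no desmosome gene exceeds 2.15.

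The members differed in how they varied from library to library. Over the 45 pairs of members, Pearson's r of log2(FPKM + 0.5) across the 24 libraries ran from -0.68 to 0.92 with a median of 0.56. After removing the 6 group means, r ran from 0.13 to 0.94 with a median of 0.60, so that within groups all pairs varied in the same direction. These libraries share mice, and all genes of a library share its sampling, so the values are descriptive. In the wound libraries of abdomen mouse 4 and back mouse 4, none of the 10 genes was above its group mean, and in unwounded skin of cheek mouse 2 none was either. All 10 were above it in unwounded cheek mouse 4, unwounded abdomen mouse 2 and the wound of abdomen mouse 2. The mean deviation from the group was -0.44 (log2) in the wound of abdomen mouse 4 and 0.45 in that of abdomen mouse 1, the widest gap within a group.

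**Figure D5:**
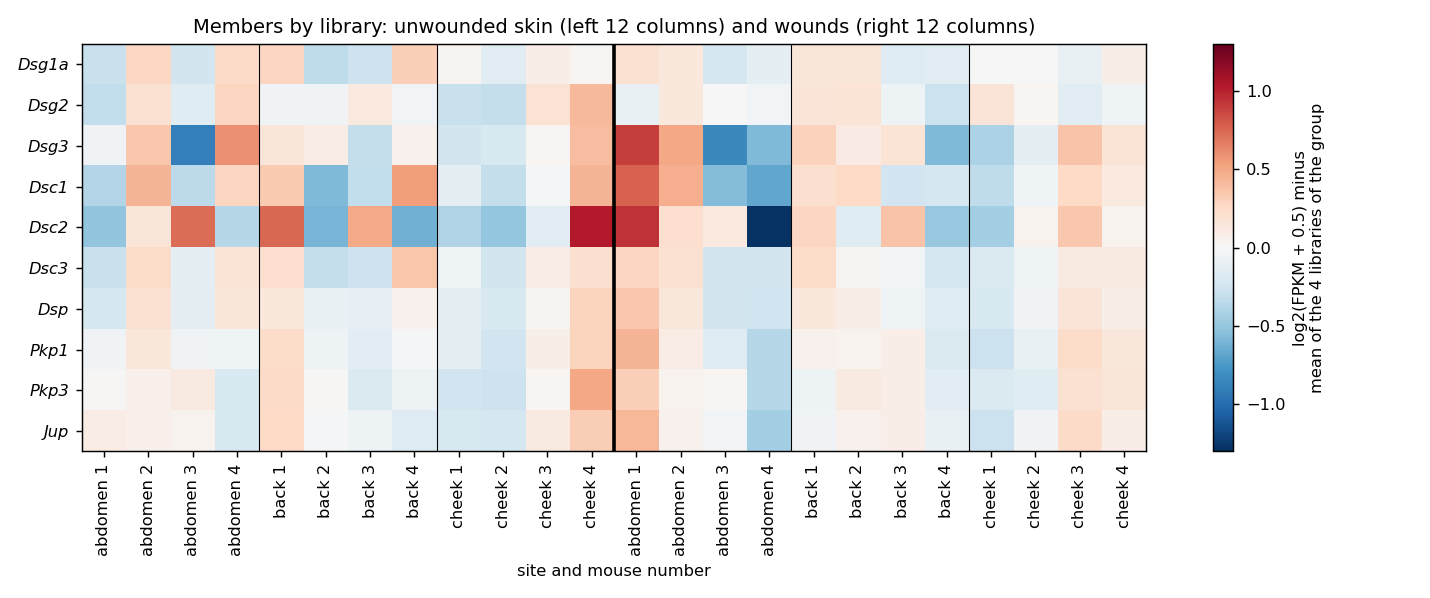
Deviation of log2(FPKM + 0.5) from the mean of the 4 libraries of a group, for the 10 genes (rows) in the 24 libraries (columns, labelled by site and mouse number). The wound of abdomen mouse 4 is below its group in all rows and unwounded cheek mouse 4 above it in all, and Dsc2, Dsg3 and Dsc1 have the deepest colours.

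For each member, the genes whose pattern over the 24 libraries was most like it were listed by Pearson's r. Jup was closest to Sfn, the 14-3-3 protein of keratinocytes (r = 0.97), Lypd3 (0.96) and Urah (0.96). Pkp3 was closest to Sdc1, a keratinocyte syndecan (0.97), Limk2 (0.93) and the cornified envelope transglutaminase Tgm1 (0.92). Pkp1 was closest to Dsg1b (0.94), the desmoglein copy that rose at all sites, then to Klk7 and Tnks1bp1 (both 0.92). Dsc2 stood with Endou, Sprr1a, a cornified envelope precursor, and Krt17 (all 0.94). Dsg2 stood with Ptpn14, Adgra3 and Pfkfb2 (all 0.93), Dsg3 with Arfgef2, Cdcp1 and Tnpo1 (0.93 to 0.94), and Dsc1 with Stam2, Atp11b and Ptbp3 (0.93 to 0.95). Dsc3 was nearest to Gnai3 (0.89), Dsp (0.84) and Fam83b (0.81), and Dsp itself was nearest to Macc1 (0.89), Fam83b (0.87) and the p120 catenin gene Ctnnd1 (0.86). Dsg1a was nearest to Map2, Pof1b and Taok1 (0.83 to 0.86). These values of r include the differences between the groups. After removing the group means, r with Dsg2 was 0.65 for Ptpn14, 0.63 for Adgra3 and 0.79 for Pfkfb2. For the other pairs listed it was 0.81 to 0.96.

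Markers of other cell types differed between wound and unwounded skin along with these results. Median summed FPKM of 8 suprabasal markers was 8722 in unwounded skin (5838 to 13280) and 10680 in wounds (9080 to 14010). For 6 skeletal muscle markers it was 13180 (444 to 20090) and 4024 (1579 to 6056), and for 6 neutrophil markers 14.3 (8.18 to 37.5) and 1099 (344 to 2388). Macrophage markers (6 genes) went from 546 (375 to 765) to 949 (701 to 1177), fibroblast markers (6) from 15900 (9089 to 23060) to 9734 (5936 to 12520), adipocyte markers (5) from 308 (96.4 to 483) to 113 (88.8 to 239), and endothelial markers (5) from 76.7 (68.7 to 105) to 115 (96.8 to 130). Sebaceous markers (5) had 1187 (799 to 1975) and 965 (813 to 1254), and 4 proliferation markers 23.1 (16.3 to 77.7) and 52.3 (41.6 to 83.7). Counts of genes that rose or fell are given as abdomen, back and cheek. Of the neutrophil markers 6, 5 and 6 rose, of the macrophage markers 4, 6 and 6, of the endothelial markers 4 each, and of the proliferation markers 3, 4 and 2, with none falling. Of the adipocyte markers 5, 5 and 4 fell, of the sebaceous markers 1, 1 and 3 fell and 0, 1 and 0 rose, and of the fibroblast markers 4, 2 and 2 fell and 0, 1 and 1 rose. Of the skeletal muscle markers 0, 4 and 0 fell, and of the 6 hair follicle markers tested 0, 0 and 1. In the 5 basal markers 1, 2 and 2 rose and 3, 3 and 1 fell, and in the 8 suprabasal markers 1, 2 and 1 rose and 3, 2 and 2 fell, so neither epidermal list moved one way. The 1 heart muscle gene tested rose at each site. The part of these shifts in the wound effects above was not tested. With every library scaled to Cdh1, an epithelial transcript, 3, 7 and 6 of the 10 genes were called in abdomen, back and cheek, against 4, 7 and 6 without scaling. The share of all tested genes called under that scaling was not counted, so its counts have no background to stand beside. Their median log2 fold change under it was -0.09, -0.03 and -0.10. In the back that scaling ended the call of Pkp1 (0.31, adjusted p = 0.0513) and added a fall of Dsg1a (-0.37, adjusted p = 0.0348).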

How the data were processed

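Whole skin punches from 12 CD-1 mice (24 libraries; wound and adjacent unwounded skin of each mouse, grouped by the sample labels) were sequenced by a provider with paired reads of 100 bases. FPKM values were computed by the authors and deposited for 18368 genes: reads were mapped to GRCm38/mm10 with HISAT2 and to transcripts with Bowtie2 2.2.5, and quantified per library with RSEM 1.2.12. No scaling between libraries was applied. A further deposited table holds fold changes and adjusted p-values of the authors' own comparisons, made with DESeq2, and was not used. Read counts were not used here, so depth is unknown and no counting interval is given.

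Here, log2(FPKM + 0.5) was fitted with limma 3.58.1 (R 4.3.3, trend and robust moderation) after dropping genes that reached 0.5 FPKM in fewer than 4 of the libraries fitted. Fold changes are on that scale and understate changes of genes near 0.5 FPKM. Wound effects came from a model of the 24 libraries (14423 genes) in which every mouse had its own term and every site its own wound effect, with an F test of their difference. Sites were compared within the 12 unwounded libraries (13956 genes) and the 12 wounds (14023 genes). P-values are two-sided and adjusted by the Benjamini-Hochberg method over all genes tested, with a threshold of 0.05. Wound and unwounded libraries of a mouse deviated together on average. The mean correlation of their deviations from the group means was 0.32, 0.35 and 0.28 in abdomen, back and cheek (lowest -0.03). For libraries of different mice it was -0.11, -0.12 and -0.10. Deviations within a group cancel out, so these negative values largely follow from the positive ones and are no separate comparison. The pairing itself comes from the labels and the study's methods. No 2 libraries held identical values. The fits were also run on simulated data as a check of the code. That check set no minimum for planted effects found by the F test or between sites.

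Shares, correlations and motif counts are descriptions with no test. All members are named, with every gene of the other desmosome list, at most the 4 genes of largest change in each further list, and the 3 genes most like each member. Ctnnb1, Cdh1, Plec, Krt1, Krt10, Krt15 and Krt2 were named besides, after their values were seen. So were the pairs of genes set against each other within a sample. The members, gene lists and marker lists were chosen with earlier results of these data known. Gene positions are from the GRCm38.p6 annotation, promoter sequences from RefSeq, and shared transcript stretches from GENCODE M21. Alternatives covered the pseudocount, the filter, scaling, moderation, the mouse term, the threshold, each site fitted alone and each mouse left out in turn. Leaving out the 2 mice with hair follicle transcripts and scaling to Cdh1 were added after seeing the data. Fads2b, listed as a sebaceous marker, was not matched to a row.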

Additional observations from a re-analysis of the deposited data

Results flagged for a closer look

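In groups of 4 mice, a sample was listed here when its gap to the nearest other sample exceeded Dixon's 95% critical value for the range of the group. This was applied to the 19 desmosome genes in 6 groups each, 114 groups in all, and listed 10, where chance gives about 1 in 20, or 5.7.

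Among the members, Dsg2 had 5.72 FPKM in unwounded back mouse 3, above 5.02 to 5.08 in the other mice, a gap that is small in absolute terms. Dsc2 had 12.61 FPKM in unwounded cheek mouse 4, the library with the highest hair follicle markers, where the next value was 5.33. Pkp1 had 193.39 FPKM in unwounded abdomen mouse 2, with a next value of 168.56, and 181.81 in the wound of back mouse 4, below 213.52 in the next.

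Of the other desmosome genes, Dsg1b had 33.71 FPKM in the wound of back mouse 4, below 43.48 in the next mouse, and in that library none of the 10 members was above its group mean. Dsg4 had 13.8 FPKM in unwounded cheek mouse 4 and 0.41 in unwounded back mouse 2, the 2 unwounded libraries with the highest hair follicle markers. Dsg4 was also listed for 0.03 FPKM in the wound of abdomen mouse 3, the other 3 mice being at 0. Pkp4 had 9.78 FPKM in the wound of cheek mouse 2, below 11.81 in the next mouse, and Ppl had 34.8 in the wound of back mouse 3, below 42.38.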

How the results depend on the processing

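Calls of wound effects numbered 4, 7 and 6 of the 10 genes in abdomen, back and cheek. Under the alternatives below, shares of all tested genes were not counted. At a threshold of 0.001 they numbered 1, 2 and 0, and with the abdomen fitted on its own 8 libraries 2 (Dsg2 and Jup). Leaving out 1 mouse at a time gave 2 to 6 calls in the abdomen (2 without abdomen mouse 1 or 2), 4 to 7 in the back (4 without back mouse 3) and 4 to 6 in the cheek. Between sites, wounds had 0 members called, 0 to 1 with a mouse left out (Dsg3, without abdomen mouse 1) and 1 (Dsg3) when scaled to Cdh1. The mean change in the share of Dsg1 among desmogleins was -14.98 percentage points for Dsg1a alone and -2.30 with the 3 Dsg1 genes summed, a difference that follows from the summing.

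Directions turned only for effects with no call in either fit. For Dsc3 in the back, 0.06 became -0.016 with median-ratio scaling, -0.071 with quantile normalisation, -0.050 with scaling to Cdh1, -0.060 without back mouse 2 and also without both mice with hair follicle transcripts, and -0.020 without back mouse 3, with a range of -0.060 to 0.25 over single mice left out. Perp in the abdomen became -0.023 with quantile normalisation, Evpl in the abdomen -0.015 without abdomen mouse 1 (range -0.015 to 0.21), and Dsp in the abdomen 0.0021 without abdomen mouse 3 and 0.11 without mouse 4 (range -0.23 to 0.11). The cause was not tested. Scaling to Cdh1 shifted the median effect of all genes to -0.10 in the cheek.

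Without the replicate block of a term for each mouse, 3, 7 and 5 members were called and none differed in its wound effect between sites. The lost calls were Pkp1 in the abdomen and Dsg3 in the cheek, and among the other desmosome genes Ppl in the back and Perp in the cheek. Mouse numbers recur at each site. They were not taken to pair the sites, since the methods place the wounds of a mouse at a single site. Deviations of libraries with the same number at different sites had a mean correlation of -0.03 in unwounded skin and -0.05 in wounds. Taking the number as a block between sites left 0 members called. It ended the call of Dsg1c in cheek against back wounds (adjusted p = 0.0615), which also was lost in 5 of the 9 other settings that left no mouse out. Depth limits the low genes Dsg1c, Dsg4 and Pkp2 most, and its size is unknown.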
